A study of Mus musculus with 15 samples.

Results

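The genes described here are the 4 mouse metallothioneins Mt1, Mt2, Mt3 and Mt4, the metal-sensing transcription factor Mtf1, the exporters Slc30a1 and Slc30a10 and the zinc importers Slc39a4 and Slc39a5. They are the 9 genes that carry 15 of the 41174 non-control probes of the array under those names, out of 27751 features in all, and they were chosen by the processed intensity of Mt4, which was higher in adenomas of drug-treated mice than in untreated ones. All mice were male Apc+/Min-FCCC animals on a C57BL/6J background, so all groups share the Min mutation of Apc, a brake on Wnt signalling. Colonoscopy at 6 to 8 weeks of age sorted them into tumor-bearing and tumor-free animals, and diets were then given for 7 days. Colon adenoma cells came from tumor-bearing mice fed sulindac, a blocker of cyclooxygenases, at 300 ppm with the statin atorvastatin at 100 ppm (4 arrays, called treated adenoma), and from tumor-bearing mice that stayed untreated (3 arrays, untreated adenoma). Normal colon epithelium came from tumor-bearing mice (4 arrays) and from tumor-free mice (4 arrays), both labelled as given atorvastatin. The protocol text does not list atorvastatin alone for tumor-bearing mice, and the sample labels were followed. No untreated normal epithelium was analysed here, so tissue and diet cannot be told apart where untreated adenoma is set against epithelium, nor tissue and sulindac where treated adenoma is.

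Metallothioneins are small cysteine-rich proteins that bind zinc and copper. Mt1 and Mt2 are made in most tissues, and zinc induces them through Mtf1, which binds metal response elements in their promoters. Mt3 is best known from brain, and Mt4 from stratified squamous epithelia such as skin and tongue. Slc30 proteins move zinc out of the cytosol, and Slc39 proteins move it in. In the gut, Slc39a4 takes up zinc from the lumen, Slc39a5 lies on the basolateral side of the enterocyte, and Slc30a1 releases zinc from the cell, while Slc30a10 carries manganese.

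The values are processed single-colour intensities. A level is the log2 intensity minus the log2 of that array's 75th percentile, so a level of 0 lies at that percentile. The share of probes that rose clearly above background ran between 56.5% and 75.5% over the arrays. Several arrays of a group were nearly identical: treated adenoma arrays 2, 3 and 4, untreated adenoma arrays 1 and 2, tumor-bearing epithelium arrays 1 and 3 and tumor-free epithelium arrays 3 and 4. The log2 differences within these 6 pairs had SDs of 0.0849 to 0.168, less than the 0.188 to 0.218 given by the scatter of replicate spots, whereas the other 15 pairs within groups differed by 0.589 to 1.11. That is the spot scatter before spatial detrending. By this rule the near-identical arrays were counted as 1 sample each, leaving 10 samples (2 treated adenoma, 2 untreated adenoma, 3 tumor-bearing and 3 tumor-free epithelium). Spots after spatial detrending scatter less, at 0.0641 to 0.0823, and the pairs lie above that. The intensities used here are detrended, so on their own scale the pairs differ by more than spot scatter, and whether they are repeats of 1 sample is not known. Array 2 of the tumor-bearing and array 2 of the tumor-free epithelium also differed by only 0.180 although their labels differ, so each result that uses epithelium carries that doubt. Their spot scatter before detrending was 0.178, so this pair just misses the rule and was not merged. It is called the near-identical pair across epithelia below. The labels call the arrays biological replicates without naming animals, and p-values measure only the spread between these samples. The epithelial genes Epcam, Cdh1, Krt8, Krt18, Krt19 and Vil1 were above background on all 15 arrays, and so were 5 of 5 fibroblast genes. In such bulk samples fewer cells of a type and less RNA per cell cannot be told apart.

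The gene on which the description turns is Mt4, read by 2 overlapping 60-base probes at chr8:92727299-92727837 and chr8:92727283-92727821 of mouse build mm7. Each covers 539 genomic bases with 60 bases of sequence and so joins exons of the Mt4 transcript. They are shown because they agree in adenomas and part in epithelium, and the capitals mark the 44 bases they share.
Mt4 probe A_51_P424272: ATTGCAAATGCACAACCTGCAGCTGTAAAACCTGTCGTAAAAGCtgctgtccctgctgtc
Mt4 probe A_51_P424275: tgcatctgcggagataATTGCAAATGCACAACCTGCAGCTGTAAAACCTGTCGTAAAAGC
The longest run that either shares with a probe of Mt1, Mt2 or Mt3 was 10 bases, with Mt1. On the same build the other probes used lie at chr8:92743071-92743130 for Mt3, chr8:92762515-92762574 for Mt2 and chr8:92769155-92769214 for Mt1, so the 4 metallothioneins sit within 41932 bases. The others lie at chr4:124293768-124293827 for Mtf1, chr1:191465806-191465865 for Slc30a1, chr1:184990352-184990411 for Slc30a10, chr15:76694988-76695047 for Slc39a4 and chr10:127898781-127899203 for Slc39a5. Whether a probe lies in coding sequence or a UTR was not looked up, as no annotation of mm7 was used.

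The promoters of Mt1, Mt2 and Mt4 are shown because these neighbours, all read on the plus strand, differ in how often they hold the core of the metal response element and differ in the data. Each runs from 250 bases before to 50 bases after the RefSeq start on GRCm38.p6, and the capitals mark every TGCACNC or TGCGCNC on either strand, the core taken here.
Mt1, chr8:94178839-94179138, plus strand: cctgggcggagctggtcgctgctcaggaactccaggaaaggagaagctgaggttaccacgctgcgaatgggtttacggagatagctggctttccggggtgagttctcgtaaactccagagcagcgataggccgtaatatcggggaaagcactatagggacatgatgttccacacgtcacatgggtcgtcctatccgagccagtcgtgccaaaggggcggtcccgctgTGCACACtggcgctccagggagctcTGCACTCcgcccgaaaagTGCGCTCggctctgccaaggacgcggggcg
Mt2, chr8:94172368-94172667, plus strand: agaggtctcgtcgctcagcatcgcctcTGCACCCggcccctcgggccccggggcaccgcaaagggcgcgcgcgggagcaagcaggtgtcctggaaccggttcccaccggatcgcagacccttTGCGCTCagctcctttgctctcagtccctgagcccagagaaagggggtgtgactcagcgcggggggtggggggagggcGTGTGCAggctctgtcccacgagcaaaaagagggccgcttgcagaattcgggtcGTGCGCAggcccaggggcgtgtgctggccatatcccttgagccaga
Mt4, chr8:94136954-94137253, plus strand: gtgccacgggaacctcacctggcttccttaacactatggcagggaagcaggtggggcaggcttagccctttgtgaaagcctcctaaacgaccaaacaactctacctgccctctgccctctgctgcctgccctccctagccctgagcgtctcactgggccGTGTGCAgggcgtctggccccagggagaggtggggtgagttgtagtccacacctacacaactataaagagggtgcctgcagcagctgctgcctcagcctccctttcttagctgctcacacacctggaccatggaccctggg
There were 4 matches in Mt2, 3 in Mt1 and 1 in Mt4. Mt3 held 1 and Slc30a1 held 2, while Slc30a10 held 3, of which 2 overlap on opposite strands. Mtf1 held 0, and of the 2 annotated starts of Slc39a5 1 held a match. RefSeq promoters were given for 8 of the 9 genes (not for Slc39a4). Of 32851 promoters of that length 25.7% held at least 1 match and 1.97% held 3 or more. Matches outside these windows were not counted, so the counts depend on where the annotated start lies and may compare unlike stretches. A match describes letters only, and binding of Mtf1 was not measured.

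**Figure D1:**
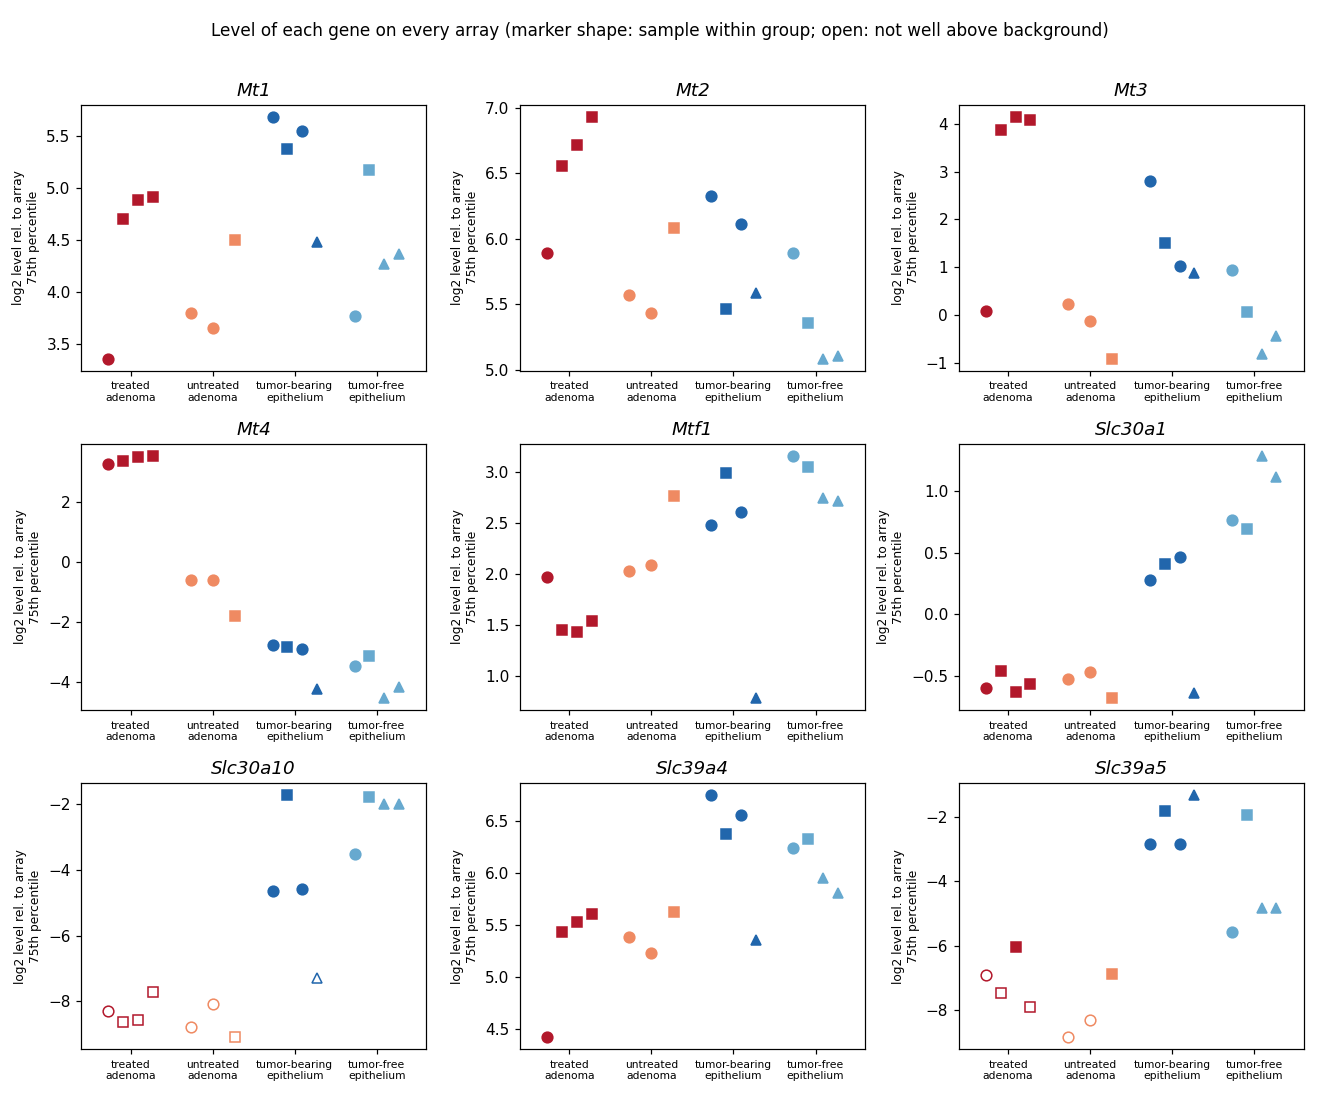
Level of each of the 9 genes on every array (vertical axes: log2 intensity relative to the array's 75th percentile, a separate scale per gene), by group; equal marker shapes within a group are arrays counted as 1 sample, and open markers are not well above background. Mt4 lies highest in the 4 treated adenoma arrays and intermediate in the 3 untreated ones, Mt3 is high on treated arrays 2 to 4 but not on array 1, and Slc30a10 and Slc39a5 are near background in adenomas.

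Mt4 was high in treated adenomas. Its level was 3.29, 3.38, 3.51 and 3.54 on treated adenoma arrays 1 to 4, against -0.61, -0.61 and -1.81 on untreated adenoma arrays 1 to 3. It was -2.77, -2.83, -2.89 and -4.25 in the epithelium of tumor-bearing mice and -3.45, -3.12, -4.53 and -4.16 in that of tumor-free mice. The 4 groups thus ran in the order treated adenoma, untreated adenoma, then both epithelia, and only the epithelia overlapped. In raw terms the processed intensity was 47860 to 72686 on treated adenoma arrays, 2006 to 6366 on untreated adenoma arrays, 393 to 737 in tumor-bearing and 294 to 616 in tumor-free epithelium.

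The treated samples averaged 3.38 ± 0.13 and the untreated samples -1.21 ± 0.85 (SD, n = 2 each), a difference of 4.59 on the log2 scale or 24.1-fold. This is the contrast by which the genes were chosen, so it is a description with no test. Within the 2 scan dates that held both adenoma groups the difference was 3.90 and 5.33. The second Mt4 probe gave 4.85. In that contrast 7 of the 9 genes passed the filter on dim signals, and Mt4 alone had an adjusted p under 0.05 in limma, where 0.221% of all 17629 tested features did. Nothing is read from that count. The count was 0 without treated array 1, treated arrays 2 to 4, untreated array 3, untreated arrays 1 and 2, tumor-bearing arrays 1 and 3, tumor-free array 1 or 2, or tumor-free arrays 3 and 4. Where an omission leaves a group with 1 sample, here and below, that sample is assumed to vary like the other groups.

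Against the epithelium of tumor-bearing mice, treated adenoma Mt4 was 103-fold higher (6.68 on the log2 scale), and against that of tumor-free mice 130-fold (7.02), again with no test because the level in treated adenoma chose the gene. Untreated adenoma Mt4 was 4.27-fold higher than in tumor-bearing epithelium (2.09 on the log2 scale) and 5.40-fold higher than in tumor-free epithelium (2.43), with both untreated samples above all 3 samples of each. These too are descriptions with no test, since the untreated values stand in the contrast that chose the genes. Within the 2 scan dates that held untreated adenoma and tumor-bearing epithelium the difference was 2.19 and 2.28, but untreated arrays 1 and 2 count as 1 sample, as do tumor-bearing arrays 1 and 3, so these values largely repeat 1 pair of samples. Untreated array 3, the lower one, shared no scan date with tumor-bearing epithelium. Tumor-free epithelium shared no scan date with any other group, so scan date and group cannot be told apart there.

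The 2 Mt4 probes differed in epithelium. Probe A_51_P424272, used above, was above background on all 15 arrays. Probe A_51_P424275 read 43373 to 74961 on treated and 1508 to 5733 on untreated adenoma arrays, close to the first, but 24 to 54 in tumor-bearing and 33 to 133 in tumor-free epithelium, where it was above background on 0 of 4 and 2 of 4 arrays. As that probe gave mostly background readings in epithelium, no difference from epithelium is given for it.

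**Figure D2:**
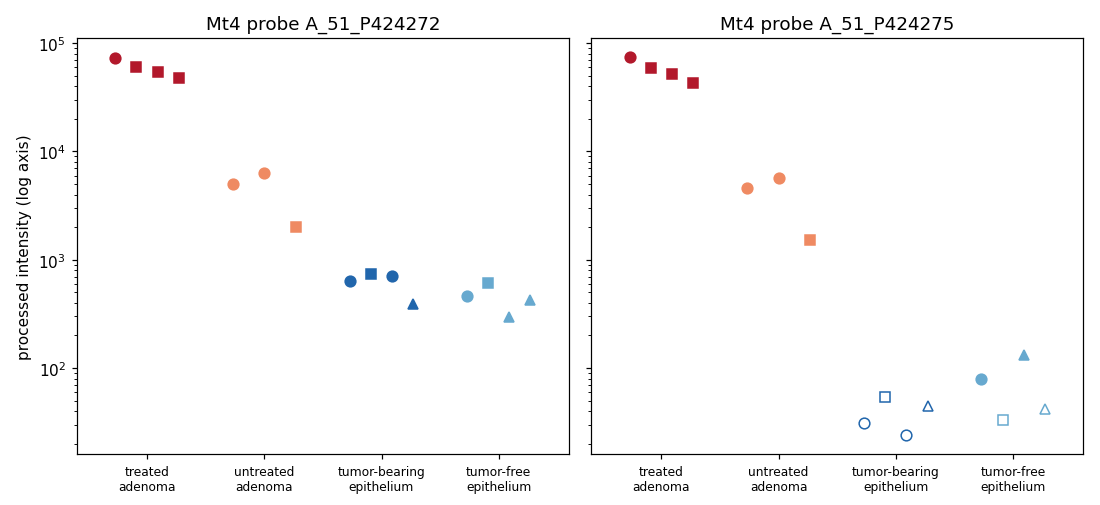
Processed intensity of both Mt4 probes on every array (log axis), by group, with open markers not well above background. The probes read alike in adenomas and part in epithelium, where the first reads 294 to 737 and the second 24 to 133.

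Markers of stratified squamous epithelium, the best known site of Mt4, were measured beside it. Of 18 such genes 11 to 13 were above background on each treated adenoma array, and their summed level (linear, in units of the 75th percentile) was 10.7 to 33.7 there, against 21.5 to 22.7 in untreated adenoma. It was 4.16 to 12.2 in tumor-bearing and 6.20 to 10.3 in tumor-free epithelium. Between treated and untreated adenoma 0 of the 12 tested passed the limma threshold, where 0.221% of all features did, and the sums overlapped. The median difference of the 12 was -0.66. Against tumor-bearing epithelium 1 of 10 tested was higher in treated and 1 of 12 in untreated adenoma, where 13.6% and 12% of all features passed. Against tumor-free epithelium 1 of 10 and 2 of 12 were higher, where 10.2% and 9.73% passed. In these comparisons 0 were lower. Krt4, Dsc3 and Ivl were above background on no array and Trp63 on none of the adenoma arrays, while Krt14 was higher in both adenoma groups than in both epithelia. The part of squamous cells in the Mt4 level was not tested.

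The genes whose sample levels most resembled Mt4 over the 10 samples, among 14531 named genes, were Fxyd6 (Pearson r 0.984), Tbx3 (0.973), Efhc2 (0.972), Zfp90 (0.969) and Rnf32 (0.962). Fxyd6, from a family of small regulators of the sodium pump, had levels of 5.96 and 5.92 in the treated and 3.48 and 3.33 in the untreated adenoma samples, and 0.26 to 1.72 in epithelium. Tbx3, a T-box transcription factor, had 4.82 and 5.82 in treated and 3.49 and 2.65 in untreated adenoma, and 0.40 to 1.89 in epithelium. These are descriptions: the samples share groups, and high r mostly follows the order of the groups.

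Mt1 and Mt2, the broadly expressed metallothioneins, were bright on all arrays and passed the test in no comparison. Mt1 was 3.36, 4.70, 4.88 and 4.91 on treated and 3.80, 3.65 and 4.50 on untreated adenoma arrays, with group means of 4.09 ± 1.04 and 4.11 ± 0.55 (SD, n = 2 each). The groups overlapped, and array 1 was the low one among the treated. In epithelium Mt1 was 4.48 to 5.68 in tumor-bearing and 3.77 to 5.17 in tumor-free mice. Against tumor-bearing epithelium Mt1 stood at -1.06 ± 0.62 in treated adenoma (limma adjusted p = 0.269) and -1.04 ± 0.62 in untreated adenoma (0.289). A second Mt1 probe gave -0.52 and -0.46 there, and against tumor-free epithelium the probes differed in sign.

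Mt2 was 5.89 to 6.93 on treated and 5.43 to 6.08 on untreated adenoma arrays, with 5.46 to 6.33 in tumor-bearing and 5.09 to 5.90 in tumor-free epithelium. Treated adenoma stood 0.52 ± 0.51 above untreated adenoma on the log2 scale and 0.86 ± 0.47 above tumor-free epithelium (limma adjusted p = 0.311). The Mt2 spot reached 80.0% to 96.7% of the saturation value on treated and 65.2% to 86.2% on untreated adenoma arrays, which left little room for a higher reading there. No spot of the 9 genes was flagged as saturated. The genes most like Mt1 in level over the 10 samples were Git2 (r 0.976), Man2c1 (0.972), Mrpl55 (0.969), Phkg2 (0.968) and Ubxn1 (0.968), and none of them was among the 5 of Mt4. Over the samples Mt1 and Mt4 had r = -0.32, Mt2 and Mt4 0.62.

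Mt3 separated the treated arrays from each other. It was 0.09 on treated array 1 and 3.87, 4.15 and 4.08 on treated arrays 2 to 4, against 0.23, -0.13 and -0.91 on untreated adenoma arrays. As arrays 2 to 4 count as 1 sample, the high level rests on 1 treated sample, and the other lay among the untreated values. The group means were 2.06 ± 2.78 and -0.43 ± 0.68 (SD, n = 2 each), a difference of 2.49 in the contrast that chose the genes. It was 0.23 and 5.02 within the 2 scan dates that held both groups, and 0.53 without treated arrays 2 to 4. In epithelium Mt3 was 0.87 to 2.80 in tumor-bearing and -0.81 to 0.94 in tumor-free mice, and no tested Mt3 difference passed. The summed level of 6 glia and neuron genes was 0.511 to 1.91 in treated and 0.455 to 0.789 in untreated adenoma, 0.999 to 1.91 in tumor-bearing and 0.827 to 1.76 in tumor-free epithelium. Gfap was above background on no adenoma array, and the part of such cells in the Mt3 level was not tested.

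Mtf1, the regulator of Mt1, Mt2 and Slc30a1, was measured on every array and passed in no comparison. Its level was 1.43 to 1.97 on treated and 2.03 to 2.76 on untreated adenoma arrays, which did not overlap, but of 2 other probes 1 put treated adenoma lower (-1.28) and 1 higher (0.72). The level was 0.79 to 2.98 in tumor-bearing and 2.71 to 3.15 in tumor-free epithelium. Treated adenoma stood at -1.26 ± 0.62 against tumor-free epithelium (limma adjusted p = 0.261). The other probes gave -1.86 and -0.97 for the same difference.

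**Figure D3:**
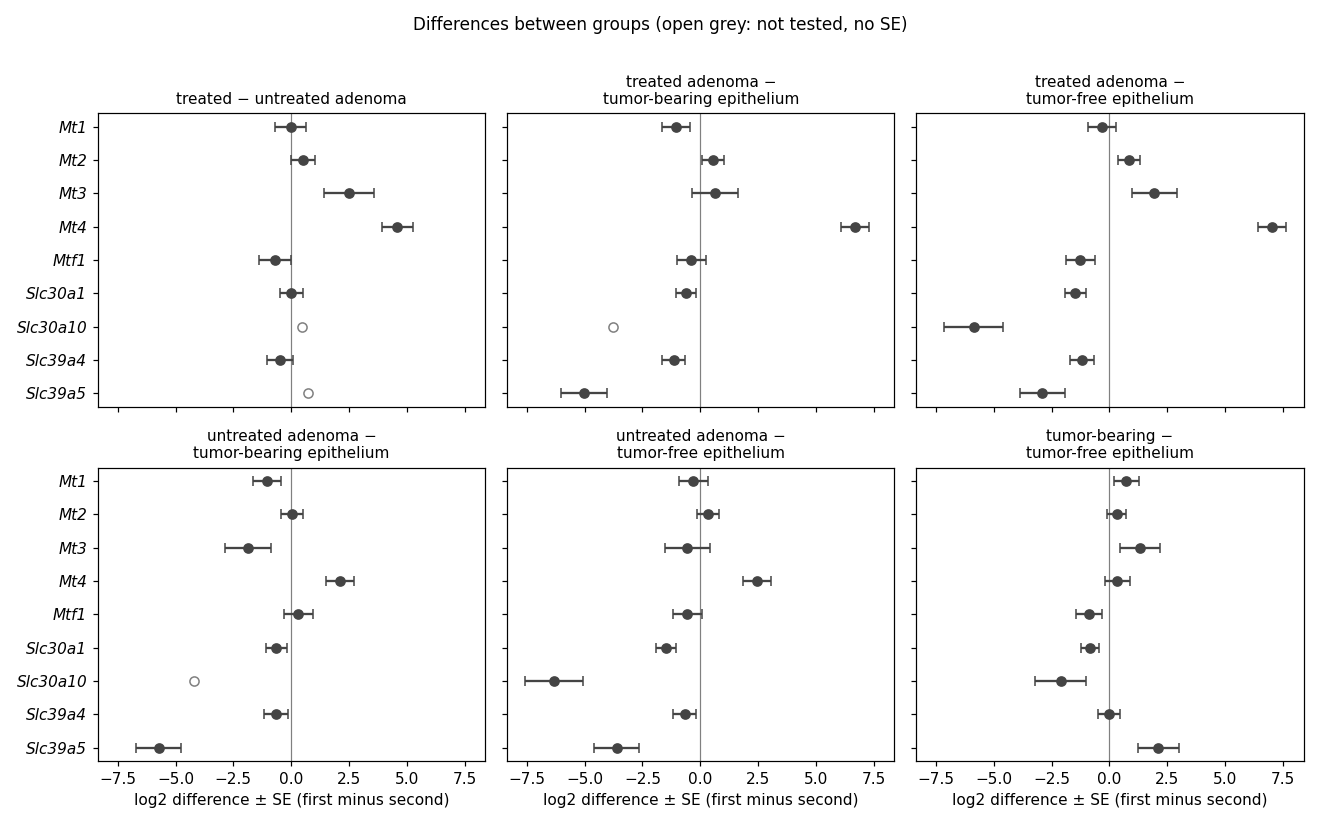
Log2 differences of the 9 genes in the 6 comparisons, first-named group minus second (horizontal axes; bars are SE from limma; open grey points were not tested). Mt4 lies above 0 in the 5 comparisons that include adenoma, Slc30a10 and Slc39a5 lie far below 0 in the comparisons of adenoma with epithelium, and Mt1 and Mt2 lie closer to 0.

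Of the exporters, Slc30a1, an Mtf1 target on the cell surface, was read by 2 probes that differ in adenomas. By the probe used its level was -0.63 to -0.46 on treated and -0.68 to -0.47 on untreated adenoma arrays, against -0.64 to 0.47 in tumor-bearing and 0.70 to 1.29 in tumor-free epithelium. All adenoma samples lay below all tumor-free samples, but the differences, -1.47 ± 0.44 for treated and -1.48 ± 0.45 for untreated adenoma, missed the limma threshold (adjusted p = 0.0667 and 0.0662). A second Slc30a1 probe read -0.71 on treated array 1 and -2.07 to -1.96 on treated arrays 2 to 4, against -0.72 to -0.08 on untreated arrays. By it treated adenoma stood at -0.95 against untreated adenoma, where the probe used gave 0.01, and treated and untreated adenoma at -2.75 and -1.81 against tumor-free epithelium.

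Slc30a10 was not well above background on any of the 7 adenoma arrays, with intensities of 13 to 24 in treated and 13 to 36 in untreated adenoma. It read 175, 1579, 219 and 48 in tumor-bearing epithelium, the last of these below background, and 446, 1579, 1703 and 1891 in tumor-free epithelium. Adenomas give only a bound, which holds for the main processing. By it treated adenoma was at least 14.4-fold lower than tumor-free epithelium and untreated adenoma at least 18.8-fold lower. The tests are of the fitted differences, -5.87 (limma adjusted p = 0.0156) and -6.33 (0.0119), which use the background readings of adenoma. Slc30a10 entered these tests only through tumor-free epithelium. The filter on dim signals thus favoured a lower level in adenoma, and the p-values are no independent support for that direction. Over the refits these differences were as small as -3.82 and -3.80, which is less than the bounds. The call for treated adenoma was lost (0.0523 to 0.0930) without treated array 1, treated arrays 2 to 4, tumor-free array 2 or tumor-free arrays 3 and 4. That for untreated adenoma was lost without untreated array 3 (0.116) or untreated arrays 1 and 2 (0.0626). Against tumor-bearing epithelium it was not tested, since array 4 there was dim too, and the bounds were at least 3.33-fold lower in treated and 4.35-fold lower in untreated adenoma. The 2 Slc30a10 probes agreed in direction in all of these.

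Of the importers, Slc39a4, the luminal zinc importer, was bright on all arrays. Its level was 4.43, 5.43, 5.53 and 5.61 on treated and 5.38, 5.23 and 5.62 on untreated adenoma arrays, 5.36 to 6.75 in tumor-bearing and 5.81 to 6.33 in tumor-free epithelium. No difference passed: treated adenoma stood at -1.15 ± 0.51 against tumor-bearing (limma adjusted p = 0.160) and -1.17 ± 0.51 against tumor-free epithelium (0.203). The Slc39a4 spot reached 29.0% to 44.3% of the saturation value in treated and 57.1% to 65.2% in untreated adenoma, against 55.1% to 89.0% in tumor-bearing and 70.9% to 78.3% in tumor-free epithelium, so the epithelia had the least room above.

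Slc39a5, the basolateral zinc importer, was near background in adenomas. It was -6.91, -7.47, -6.05 and -7.89 on treated arrays and -8.83, -8.31 and -6.89 on untreated arrays, above background on 1 array of each group. It was -2.84, -1.82, -2.85 and -1.34 in tumor-bearing and -5.58, -1.94, -4.83 and -4.84 in tumor-free epithelium, above background on all 8. Adenoma and epithelium did not overlap. Since 5 of the 7 adenoma readings were not above background, the sizes of the fitted differences are uncertain and no fold is given. Slc39a5 entered the tests only through epithelium, so the filter on dim signals favoured a lower level in adenoma. The adjusted p-values given for it are no independent support for that direction. Against tumor-bearing epithelium Slc39a5 stood at -5.02 ± 0.98 in treated adenoma (limma adjusted p = 0.00853) and at -5.73 ± 0.98 in untreated adenoma (0.00528), and with normexp background correction at -3.46 (0.0104) and -3.76 (0.00773). Within single scan dates the differences were -4.06 and -6.13 for treated adenoma, and -6.51 and -5.46 for untreated adenoma, the last pair again mostly from 1 pair of samples. The first call was lost without treated array 1 (0.0599) or treated arrays 2 to 4 (0.0609), the second without untreated arrays 1 and 2 (0.0628).

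Against tumor-free epithelium Slc39a5 stood at -2.90 ± 0.98 in treated adenoma (limma adjusted p = 0.0991) and at -3.61 ± 0.98 in untreated adenoma (0.0460), of which only the untreated one passed. Whether the 2 differ was not tested. That call was lost, with adjusted p of 0.0505 to 0.269, without treated array 1, treated arrays 2 to 4, untreated array 3, untreated arrays 1 and 2, tumor-bearing array 2, tumor-bearing arrays 1 and 3, tumor-free array 2 or tumor-free arrays 3 and 4. It was also lost in 5 of 10 other settings: normexp (-1.96, 0.120), quantile normalization (-3.38, 0.0838), the authors' deposited table (-2.04, 0.157), no filter on dim probes (0.0603) and without the near-identical pair across epithelia (-2.52, 0.0976).

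Most genes of absorptive colonocytes lay lower in adenoma than in epithelium, as did Slc30a10 and Slc39a5. Between treated and untreated adenoma their median difference was -2.86, while both transporters were near background in both adenoma groups. There 0 of the 8 colonocyte genes passed, where 0.221% of all features did. Of 8, 7 were lower in treated adenoma than in either epithelium, and 6 and 5 were lower in untreated adenoma than in tumor-bearing and tumor-free epithelium. For these and the counts below, 13.6% and 10.2% of all features passed in treated adenoma against tumor-bearing and tumor-free epithelium. In untreated adenoma 12% and 9.73% did. Their summed level was 5.75 to 15.9 in treated and 8.65 to 54.9 in untreated adenoma, against 86.8 to 356 in tumor-bearing and 266 to 360 in tumor-free epithelium. Other cell types moved in the same comparisons. Of 5 enteroendocrine genes tested 4 were lower in treated and 5 in untreated adenoma than in either epithelium. Of 6 goblet cell genes 5 and 4 were lower in treated adenoma than in tumor-bearing and tumor-free epithelium, and 2 were lower in untreated adenoma than in either. Of 3 B and plasma cell genes tested 2 were lower in both adenomas, and 3 of 3 neutrophil genes tested were higher, with medians of 8.42 to 9.18 on the log2 scale. Of 4 neutrophil genes 0 to 1 were above background per tumor-bearing and 0 to 3 per tumor-free epithelium array. The sizes of these medians thus rest largely on background readings. The neutrophil genes entered the tests only through adenoma, so the filter on dim signals favoured the direction found. The part of these cells in the results on both transporters was not tested.

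The counts of the 9 genes past the threshold were small and can be set beside those of all features, with Mt4 counted although its levels in adenomas chose the genes, so nothing is read from its share. In treated adenoma against tumor-bearing epithelium 2 of 8 tested passed (Mt4 and Slc39a5), where 13.6% of all features did, and the median difference of the 8 was -0.50, against -0.08 over all features. In untreated adenoma against the same epithelium 2 of 8 passed, where 12% did, with medians of -0.65 and -0.13. Against tumor-free epithelium 2 of 9 passed for treated adenoma (Mt4 and Slc30a10), where 10.2% did, with medians of -1.17 and -0.14. For untreated adenoma 3 of 9 passed, where 9.73% did, with medians of -0.57 and -0.20. These comparisons share adenoma or epithelium samples and are not independent of each other.

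Between the epithelia of tumor-bearing and tumor-free mice, 0 of the 9 genes passed in limma, and 0% of 17648 features did, of which 501 had an unadjusted p under 0.05. Slc39a5 was the gene of the 9 with an unadjusted p under 0.05, at 2.12 ± 0.87 (unadjusted p = 0.0345, limma adjusted p = 0.994), with overlapping samples. Mt4 stood at 0.34 ± 0.54, Mt3 at 1.30 ± 0.87, Slc30a1 at -0.84 ± 0.40 and Slc30a10 at -2.11 ± 1.12. No scan date held both epithelia.

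The wider transporter families set these genes in context. Of the 10 Slc30 genes, Slc30a2 was the only member called in all 4 comparisons of adenoma with epithelium, where 9.73% to 13.6% of all features passed. It moves zinc into vesicles, and in mice it loads the secretory granules of Paneth cells, the antimicrobial cells of intestinal crypts. Its level was 3.83, 4.09, 4.26 and 4.27 on treated and 2.98, 2.90 and 2.78 on untreated adenoma arrays. In tumor-bearing epithelium it was -2.66, -3.47 and -7.08 on arrays 2 to 4 (array 1 was flagged and left out), and in tumor-free epithelium -4.86, -3.24, -6.10 and -5.97, with 2 arrays of each group above background. Against tumor-bearing epithelium Slc30a2 stood 8.42 ± 1.18 higher in treated adenoma (limma adjusted p = 0.00143) and 7.27 ± 1.18 higher in untreated adenoma (0.00399) on the log2 scale. Against tumor-free epithelium it stood 8.73 ± 1.18 (0.00132) and 7.57 ± 1.18 (0.00355) higher. Tumor-bearing array 4 and tumor-free arrays 3 and 4 were not above background, so the sizes rest in part on background readings. Slc30a2 entered these tests only through adenoma. The filter on dim signals thus favoured a higher level there, and the p-values are no independent support for that direction. Over all refits the differences ranged from 7.09 to 9.30 and 5.93 to 8.14 for treated and untreated adenoma against tumor-bearing epithelium, and from 8.07 to 9.60 and 6.86 to 8.31 against tumor-free epithelium, and no call was lost. Treated adenoma exceeded untreated adenoma by 1.16 ± 1.29, which did not pass.

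Of the 6 Paneth cell genes on the array, most differed in the direction of Slc30a2 between adenoma and epithelium. Of them 5 were higher in treated adenoma and 4 in untreated adenoma than in either epithelium. Against tumor-bearing epithelium 13.6% and 12% of all features passed in treated and untreated adenoma, and against tumor-free epithelium 10.2% and 9.73%. The summed level of the Paneth cell genes was 79.5 to 149 in treated and 144 to 203 in untreated adenoma, 2.27 to 44.8 in tumor-bearing and 2.16 to 61.4 in tumor-free epithelium. Between treated and untreated adenoma 1 of the 6 passed, as higher, where 0.221% of all features passed. The median difference of the 6 was -0.52 there, whereas Slc30a2 was higher in treated adenoma without passing. Their part in the Slc30a2 result was not tested.

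Of the 14 Slc39 genes, 13 were tested against epithelium. In untreated adenoma against tumor-bearing epithelium 0 were higher and 2 lower, Slc39a5 included, where 12% of all features passed. In each of the remaining comparisons of adenoma with epithelium 1 was higher and 2 lower, where 9.73% to 13.6% passed. With a list this short, nothing is read from these counts. Slc39a11 was lower in adenoma in all 4 comparisons, by -1.99 ± 0.45 and -2.13 ± 0.45 for treated and untreated adenoma against tumor-bearing epithelium, and by -1.68 ± 0.46 and -1.83 ± 0.46 against tumor-free epithelium (limma adjusted p = 0.0151 to 0.0444). Slc39a6, an importer induced by estrogen in human breast cancer cells, was higher in treated adenoma than in tumor-bearing (2.39 ± 0.52, adjusted p = 0.0140) and tumor-free epithelium (2.50 ± 0.52, 0.0131) and in untreated adenoma than in tumor-free epithelium (1.88 ± 0.52, 0.0498). Slc39a9 was lower in treated adenoma than in tumor-free epithelium (-1.87 ± 0.47, 0.0329). Leaving out single arrays or samples ended between 1 and 16 of 19 refits for each of these 8 calls, most often for Slc39a6 in untreated adenoma. All 8 calls were lost without the near-identical pair across epithelia. The Slc39a11 call in treated adenoma against tumor-free epithelium was also lost with quantile normalization (-1.39, adjusted p = 0.0610), the authors' deposited table (-1.45, 0.0523) and no filter on dim probes (0.0658), the last of which also ended the Slc39a6 call in untreated adenoma. Slc39a8, a zinc and manganese importer, stood 2.23 ± 0.76 and 2.29 ± 0.76 above tumor-bearing and tumor-free epithelium in treated adenoma without passing (0.0812 and 0.0933). Between treated and untreated adenoma none of the 7 Slc30 and 12 Slc39 genes tested passed. Only 0.221% of all features did, so nothing is read from that.

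**Figure D4:**
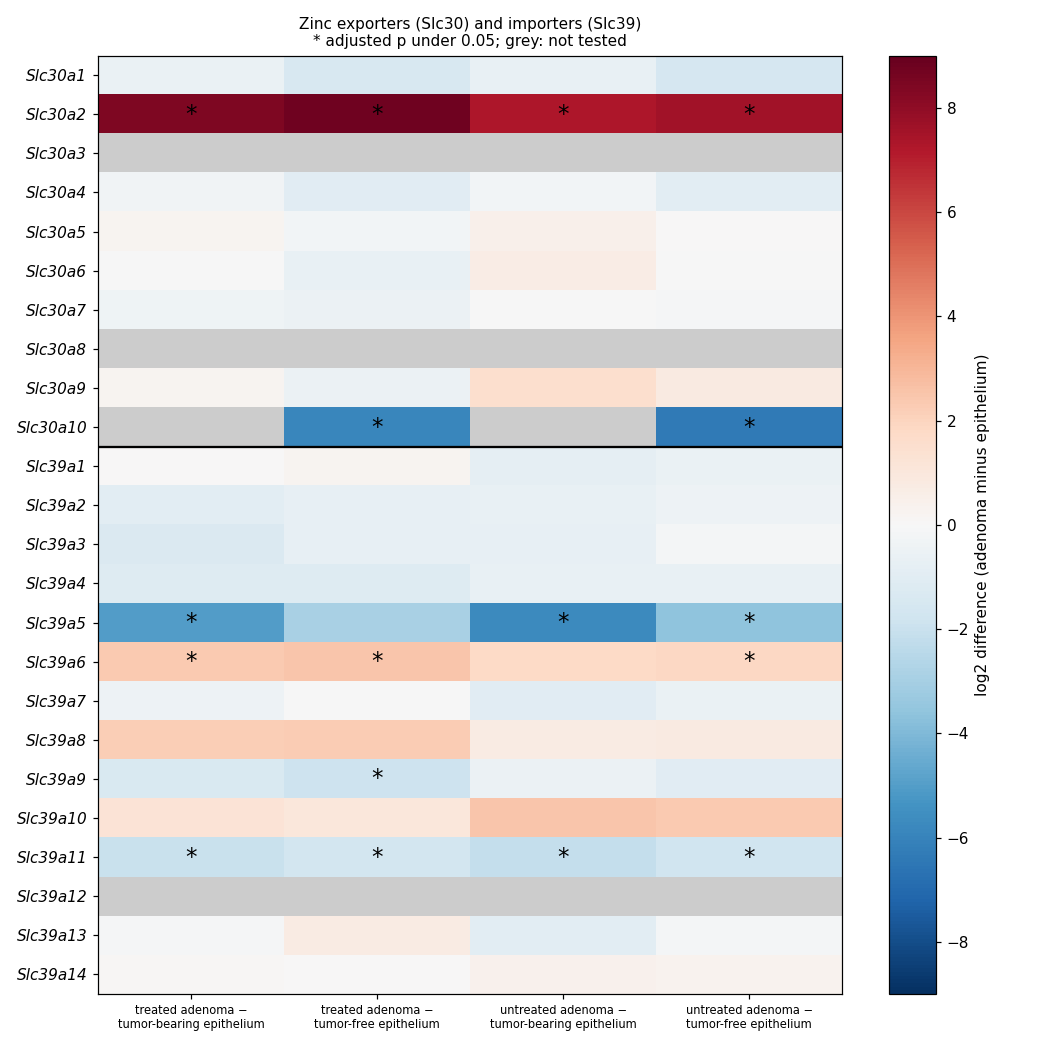
Log2 differences, adenoma minus epithelium (colour), of the 10 Slc30 and 14 Slc39 genes in 4 comparisons, with asterisks where the limma adjusted p was under 0.05 and grey where not tested. Slc30a2 is higher and Slc39a11 lower in all 4 columns, and Slc30a10 and Slc39a5 lie below 0 wherever they were tested.

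Other metal and hormone genes were read as lists. Of all features 12% passed in untreated adenoma against tumor-bearing epithelium. In treated adenoma 13.6% passed against tumor-bearing and 10.2% against tumor-free epithelium. With lists this short, nothing is read from the counts below. Of 10 copper genes tested, Steap4 alone, a metalloreductase, was higher in untreated adenoma than in tumor-bearing epithelium (3.16 ± 0.70, limma adjusted p = 0.0179). In that epithelium array 1 was flagged and left out for Steap4. Arrays 3 and 4 were not above background (intensities of 57 and 49), so the size rests in part on background readings. Steap4 entered that test only through untreated adenoma, so the filter on dim signals favoured the direction found. The copper importer Slc31a1 stood 1.89 ± 0.65 higher in treated than in untreated adenoma without passing (0.302), at 4.06 to 5.28 on treated against 2.75 to 2.83 on untreated arrays. Of 10 iron genes tested, Heph alone, the ferroxidase of iron export, was lower in treated adenoma than in tumor-free epithelium (-2.41 ± 0.56, 0.0233). Of 7 further genes linked to Mtf1, Selenow alone, a selenoprotein, was lower in untreated adenoma than in tumor-bearing epithelium (-3.22 ± 0.83, 0.0330). Selenow was 0.77 on treated array 1 and 3.57, 3.58 and 3.67 on treated arrays 2 to 4, against -0.08, 0.05 and -2.12 in untreated adenoma, so like Mt3 it was high in 1 treated sample. Glucocorticoids induce Mt1 and Mt2, and of 7 other glucocorticoid-induced genes Cdkn1c was higher in treated adenoma than in tumor-bearing (3.63 ± 0.83, 0.0178) and tumor-free epithelium (3.51 ± 0.83, 0.0248), while Fkbp5 was lower than in tumor-free epithelium (-2.52 ± 0.65, 0.0360). The median of these 7 against tumor-free epithelium was -1.56 in treated adenoma, beside -0.14 over all features, but 0.29 in untreated adenoma, beside -0.20. Against tumor-bearing epithelium it was -0.79 in treated and 0.05 in untreated adenoma, beside -0.08 and -0.13. None of these lists had a member past the threshold between treated and untreated adenoma or between the epithelia. Of all features 0.221% and 0% passed there, so these counts of 0 say little about the lists. Each of the calls in this paragraph was lost when at least 1 array or sample was left out. Those of Steap4 and Fkbp5 were also lost with the mean of all probes of a gene. Those of Selenow, Heph and Fkbp5, and that of Cdkn1c against tumor-free epithelium, were lost without the near-identical pair across epithelia.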

How the data were processed

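RNA of laser-microdissected mouse colon was amplified, labelled with Cy3 and hybridised to Agilent whole mouse genome arrays, per the labels' protocols. The submitters' processing notes name Agilent Feature Extraction 9.5.3. Per the file headers, its deposited processed intensity has the background subtracted and spatial trends removed, with no scaling between arrays. The authors' deposited table holds log2 values, used only as an alternative: its 4 tumor-bearing epithelium columns match the scanner files of that group in reverse order and were set beside the files they match.

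Here log2 intensity minus the array's 75th percentile was used, without control spots and outlier flags (at most 9.12% of spots on an array). Gene names came from RefSeq GRCm38.p6 (22951 probes by accession, 6659 by symbol, 3109 by synonym; 2011 kept the file's name). Per gene the probe with the highest mean was taken. Near-identical arrays were averaged. All 4 groups were fitted in limma 3.58.1 (R 4.3.3; lmFit, eBayes; two-sided; Benjamini-Hochberg over all features tested; threshold 0.05), testing a feature where each array of 1 or both groups compared was well above background. A gene dim on every array of a group gets a bound from the lowest signal above background there. Arrays lay on 11 slides and 6 scan dates. The small number of arrays limits the precision.

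Genes, lists and tests were chosen with earlier results of these data known. All 9 genes are named; of each list up to 4 called genes per direction, otherwise the 2 with the highest absolute moderated t, of which some are given; other genes were singled out after their values were seen. The fit was tested on simulated data. Alternatives are in the closing section.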

Additional observations from a re-analysis of the deposited data

How the results depend on the processing

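Counts of the 9 genes past the limma threshold depended on the processing as follows, in 30 refits (29 for comparisons with tumor-free epithelium), and no called difference changed sign. For treated against untreated adenoma the count of 1 became 2, with Mt3 added, with 15 arrays as separate samples, with scan date or slide as a random block and with scan date as a fixed block (without tumor-free epithelium, chosen after seeing the data), and 0 without the near-identical pair across epithelia. For untreated adenoma against tumor-bearing epithelium the count of 2 became 1, with Mt4 lost, with quantile normalization, with the authors' deposited table, without a filter on dim probes and without that pair, and 5 with scan date as a random block. For treated adenoma against tumor-bearing epithelium 2 became 4 with separate arrays. For untreated adenoma against tumor-free epithelium 3 became 1 without that pair, and for treated adenoma 2 became 7 with separate arrays or scan date as a random block and 6 with slide as a random block. Fits on separate arrays count near-identical arrays as replicates, which narrows the spread. For tumor-bearing against tumor-free epithelium the count was 0 in every refit.

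Leaving out single arrays or samples (samples of several arrays added after seeing the data) gave 0 to 1 for treated against untreated adenoma, 0 to 2 and 1 to 4 for untreated and treated adenoma against tumor-bearing epithelium, and 0 to 4 and 1 to 3 against tumor-free epithelium. The deviations of same-numbered arrays had correlations of -0.30 to 0.52 (21 pairs, median 0.08). No comparison with differently numbered arrays is given, so these values cannot decide whether numbers pair samples. With the replicate block on separate arrays the counts were 2 for treated against untreated adenoma, 7 for treated adenoma against tumor-free epithelium, 3 for both adenomas against tumor-bearing epithelium and 4 for untreated adenoma against tumor-free epithelium.

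Normexp background correction shrank differences of dim genes: Slc30a10 in untreated adenoma against tumor-free epithelium was -3.80 (adjusted p = 0.0174), and -3.95 in the authors' deposited table (0.0354). Slc39a5 in untreated adenoma against tumor-bearing epithelium was -3.76 (0.00773). Signals near background limit Slc30a10, Slc39a5, Slc30a2, Steap4, the neutrophil genes and the second Mt4 probe. Signals near saturation limit Mt2 in adenomas and Slc39a4 in epithelium.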
